A study of Mus musculus with 8 samples.

Results

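The genes described here are the hypoxia-inducible factors and a set of their targets, measured in whole kidneys of aged mice with and without C1qtnf1. They were chosen by symbol, 10 of the 23386 genes in the deposited expression table, and each of the 10 was found in 1 row. The set holds the oxygen-regulated factor subunits Hif1a and Epas1, the secreted factors Vegfa, Epo and Adm, the oxygen sensor Egln3, the small ankyrin repeat protein Ankrd37, and the cell response genes Bnip3, Ndrg1 and P4ha1. A filter on low values (a mean of at least 0.5 scaled FPKM, a length- and depth-normalised fragment count divided by 1 factor per library) was passed by 9 of them, and Epo did not pass. 4 kidneys were from wild-type (WT) mice and 4 from Ctrp1-/- (KO) mice, all 49 weeks old, of strain C57BL/6J, and given as biological replicates. The KO mice carry the allele C1qtnf1tm1Lex, a germline deletion of 679 bases in exon 4 of C1qtnf1, of which 162 lie in the 3' UTR. C1qtnf1 encodes CTRP1, a secreted relative of adiponectin. The allele was made in 129S5/Sv embryonic stem cells and crossed for more than 6 generations to C57BL/6J, and both groups came from heterozygous parents. The labels name both sexes for the colony and no sex for a library. In all 8 libraries the Y-linked gene Ddx3y lay between 9.47 and 13.2 scaled FPKM and Xist, the RNA of the inactive X, between 0.0035 and 0.017. Each library is the left kidney as a whole, so fewer cells of a type and less RNA per cell cannot be told apart.

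Hypoxia-inducible factors are pairs of an oxygen-regulated alpha subunit and the stable partner ARNT. With oxygen present, prolyl hydroxylases of the EGLN family mark the alpha subunit, the VHL ubiquitin ligase recognises the mark, and the protein is destroyed. When oxygen falls the alpha subunit persists, pairs with ARNT and binds a short DNA core, the hypoxia response element, near its targets. The control acts mainly on the protein, so the mRNA of Hif1a or Epas1 is not a reading of factor activity. In the kidney, interstitial fibroblast-like cells make erythropoietin under the control of EPAS1, whereas podocytes and tubule cells make VEGFA.

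Since the factors recognise targets through this core, the promoters of the genes were read for its letters, ACGTG and GCGTG on both strands. The windows are 300 bases long, from 250 before to 50 after each transcription start, on GRCm38.p6 (the build mm10), and the sequences are RefSeq's. 8 of the 10 genes had a window. Epas1 and Ndrg1 had none in the table used. At least 1 core stood in a window of all 8 genes, and ACGTG in 6 of them, where 46.7% and 21.8% of all 27025 genes with a window have them. Vegfa has 2 windows, and the one at its main start, chr17:46032328-46032627, held neither form. An ACGTG and a CACGT that share letters, as in the palindrome CACGTG, were counted once on each strand. One stretch of 25 bases per gene is shown on the strand of the gene, with the core in capitals (CACGT and CACGC are the cores of the other strand), ACGTG being preferred and then the core nearest the start. For Hif1a and the second window of Vegfa, the end of the window was not found in a GENCODE vM21 transcript of the gene. The strand was therefore not verified for these. The Hif1a window, chr12:73907617-73907916, lies inside the deposited span of the gene, which starts at 73901375. The Epo window, chr5:137485767-137486066, also lies inside its deposited span, which on the minus strand starts at 137533242. So does the second window of Vegfa, whose span starts at 46032377 on the minus strand.
Hif1a: gctgagagcaACGTGggctggggtg
Vegfa, second window: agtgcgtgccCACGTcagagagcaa
Epo: aagacttgcaGCGTGgacactggcc
Adm: caaatctgacCACGCccaccgtccg
Ankrd37: gtgtttgggtACGTGaggccgcagc
Egln3: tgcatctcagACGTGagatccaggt
Bnip3: cacgcgccgcACGTGccacacgctc
P4ha1: tgacagagcgCACGTagcgagggct
The core shown began 70 bases before the start in Hif1a (chr12:73907787-73907811, plus strand), 6 in Ankrd37 (chr8:45999842-45999866, minus strand), 16 in P4ha1 (chr10:59323270-59323294, plus strand) and 107 in Bnip3 (chr7:138909599-138909623, minus strand). In Egln3 it began 229 bases before the start (chr12:54204089-54204113, minus strand), in Adm 54 before (chr7:110627593-110627617, plus strand), and in the second window of Vegfa 211 before (chr17:46025360-46025384, minus strand). In Epo it lay 14 bases past the start (chr5:137485788-137485812, minus strand). Such a match describes the reference sequence and was not measured in these kidneys.

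The 8 libraries held between 15027400 and 19256378 counted reads. The WT kidneys held 3.63 ± 0.877 and the KO kidneys 0.325 ± 0.174 scaled FPKM of C1qtnf1 (SD, n = 4), with no overlap between the groups. Its exact permutation p (two-sided) was 0.0286, below which a design of 4 against 4 cannot go. The tissue label was checked against markers. All 7 proximal tubule, 5 thick ascending limb, 6 podocyte and 8 endothelial markers were present, and so were 8 of 8 markers of interstitial fibroblasts and pericytes, the cell class that makes erythropoietin. WT replicate 3 stood apart in tubule injury markers (7 genes), with a summed level of 709 scaled FPKM against 333 to 467 in the other WT libraries and 348 to 454 in KO. Spp1 made 554.6 of it and Clu 131.3. Havcr1, Krt20, Vcam1, Spp1 and Clu were each highest in WT replicate 3. Lcn2 was highest in KO replicate 3 (4.07, against 3.41 in WT replicate 3), and Sox9 in WT replicate 1 (1.08). KO replicate 3 had the highest sum of distal tubule and collecting duct markers (7 genes), at 814 against 503.5 to 650.3 in the other 7 libraries. Aqp2 made 445.7 of it, against 107.7 to 189.4 in the other 7 libraries. Aqp3 was also highest in KO replicate 3 (72.0), whereas Slc12a3 (224), Pvalb (23.4) and Scnn1g (8.24) were lowest there. Atp6v1g3 and Slc26a4 were at neither end there. KO replicate 4 stood apart in blood markers (5 genes found of 6), with 3359 against 560.3 to 1271.

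None of the hypoxia genes differed between the genotypes past the threshold. Of the 9 tested, 0 were called by limma at an adjusted p under 0.05, where 0.0499% of all 14022 genes tested (7) were called, and limma's voom on recovered reads called 0 of the 9 as well. At an unadjusted p under 0.05 there were 2 of 9, Epas1 and Ndrg1, both lower in KO and 0 higher, where 8.26% of all genes were past it and lower, 7.18% past it and higher, and 15.4% past it in either direction. Without KO replicate 3 the limma unadjusted p was 0.0564 for Epas1 and 0.0539 for Ndrg1. With quantile normalization it was 0.0606 and 0.0756. The WT and KO libraries overlapped in all 10 genes (0 without overlap), where 8.62% of the genes tested had groups that did not overlap. The log2 fold changes ran from -0.38 to 0.11, 5 below 0 and 4 above, with a median of -0.05 against -0.0012 for all genes tested. Each log2 fold change is of scaled FPKM plus 0.5, so for a gene of low level it is smaller than the change itself.

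**Figure D1:**
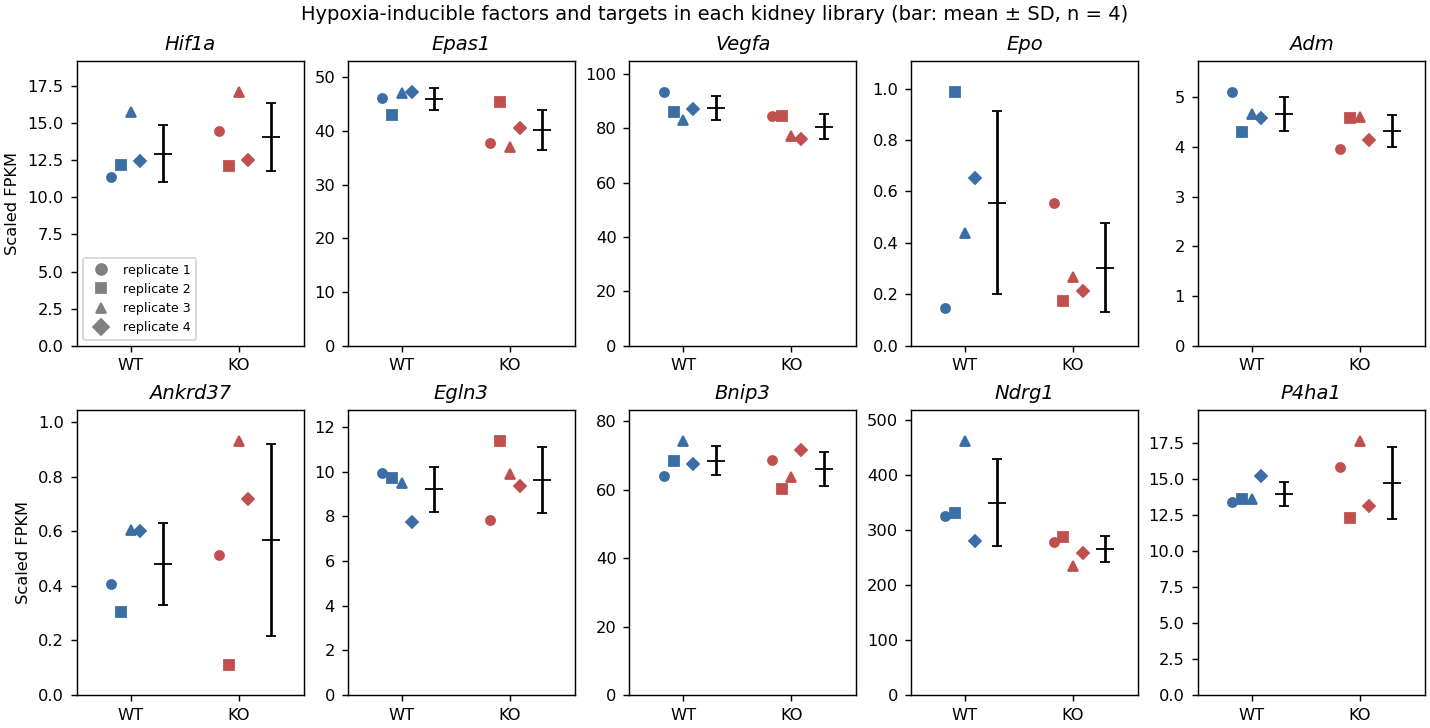
Scaled FPKM (vertical axes, linear from 0) of the 10 genes in each WT and KO kidney library; each point is a library, shaped by replicate number, and black bars give mean ± SD (n = 4). The groups overlap in every panel, and WT replicate 3 stands highest for Ndrg1, at 463.

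The factor subunits took opposite sides of 0. Hif1a (chromosome 12, 73901375 to 73947530, plus strand, mm10) measured 11.3, 12.2, 15.8 and 12.5 scaled FPKM in the WT libraries and 14.5, 12.1, 17.1 and 12.5 in the KO libraries. The highest library of each group was its replicate 3, and the groups covered nearly the same range. The group means were 12.9 ± 1.93 and 14.1 ± 2.29 (SD, n = 4), a log2 fold change of 0.11 (SE 0.12, 95% interval -0.16 to 0.39, limma adjusted p = 0.685). Across genes the fold change followed GC content, with medians from 0.09 in the fifth of genes of lowest GC content to -0.10 in the highest. Hif1a transcripts have a GC content of 41.3%, and with trends of GC content and gene length removed its fold change was 0.02. It was 0.21 without WT replicate 3 and 0.02 without KO replicate 3. KO replicate 3, highest here and also for Ankrd37 and P4ha1, is the library with the highest distal tubule and collecting duct sum, 814. Aqp2 made 445.7 of that sum, and Slc12a3, Pvalb and Scnn1g of the same list were lowest there. KO replicate 3 was also the lowest of the 8 libraries for Epas1 (37.0) and Ndrg1 (235). The part of these markers in the Hif1a, Ankrd37, P4ha1, Epas1 and Ndrg1 levels was not tested.

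Epas1, which encodes the HIF-2 alpha subunit found mainly in endothelial and interstitial cells, lies on chromosome 17 (86753907 to 86833410, plus strand). It measured 46.2, 42.9, 47.1 and 47.3 in WT and 37.7, 45.4, 37.0 and 40.5 scaled FPKM in KO. KO replicates 1, 3 and 4 lay below every WT library, and KO replicate 2 lay inside the WT range. The means were 45.9 ± 2.03 and 40.2 ± 3.80, so KO stood at 87.5% of WT. The log2 fold change was -0.19 (SE 0.07, 95% interval -0.35 to -0.04, unadjusted p = 0.0193), which did not pass over all genes (limma adjusted p = 0.249), and the exact permutation p was 0.0571. Without KO replicate 3, the lowest library, the log2 fold change was -0.16 (limma unadjusted p = 0.0564). Without KO replicate 1 it was -0.17 (limma unadjusted p = 0.0551), and with quantile normalization -0.16 (limma unadjusted p = 0.0606). Summed endothelial markers overlapped, at 210.3 to 239 in WT and 196 to 257 in KO (exact permutation p = 0.60), with 4 of 8 higher, 4 lower, none called and none at 0. Summed proximal tubule markers did not overlap, at 6512 to 7217 in WT and 5679 to 6297 in KO (exact permutation p = 0.0286). Of the 7, 4 were lower in KO and 3 (Lrp2, Slc22a6 and Slc27a2) higher, with none called and none at 0. Slc34a1 (mean 2804 in WT and 2422 in KO) and Miox (2211 and 1755) carried most of the difference in the sum. The part of these markers in the Epas1 difference was not tested.

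Of the secreted factors, Vegfa was abundant and Epo nearly absent. Vegfa (chromosome 17, 46016993 to 46032377, minus strand), the growth factor that maintains the glomerular and peritubular capillaries, measured 93.5, 86.0, 83.0 and 87.1 in WT and 84.5, 84.6, 77.2 and 76.0 scaled FPKM in KO. KO replicates 3 and 4 lay below every WT library, and KO replicates 1 and 2 lay between WT replicates 3 and 2. With means of 87.4 ± 4.43 and 80.6 ± 4.65, the log2 fold change was -0.12 (SE 0.06, 95% interval -0.25 to 0.01, limma adjusted p = 0.354).

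Epo (chromosome 5, 137483020 to 137533242, minus strand), the hormone that drives red cell formation, was counted in 2, 15, 6 and 9 reads in the WT libraries and in 7, 3, 4 and 3 in the KO libraries. The scaled FPKM were 0.147, 0.988, 0.438 and 0.653 in WT against 0.557, 0.176, 0.270 and 0.212 in KO. The lowest value of all was a WT library, WT replicate 1, and the highest was WT replicate 2, which held 15 of the 32 WT reads. The means were 0.556 ± 0.355 and 0.304 ± 0.173 (SD, n = 4), and the exact permutation p was 0.286. By reads, 17 in KO against 32 in WT at the depths of these libraries made a ratio of 0.514 (exact 95% interval 0.268 to 0.954), an interval that covers counting error only and not the spread between kidneys. The span given for Epo overlaps Gnb2, a gene at 89.6 scaled FPKM on the same strand, and 104 of the 855 exon bases of Epo lie in exons of Gnb2 (GENCODE vM21), so its low values are uncertain.

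Adm (chromosome 7, 110627661 to 110629820, plus strand) encodes adrenomedullin, a peptide that widens blood vessels. It measured 5.12, 4.30, 4.67 and 4.59 in WT and 3.97, 4.58, 4.60 and 4.14 scaled FPKM in KO. KO replicates 1 and 4 lay below every WT library, and the other two lay within the WT range. The log2 fold change was -0.10 (SE 0.08, 95% interval -0.27 to 0.07, limma adjusted p = 0.544), from means of 4.67 ± 0.339 and 4.32 ± 0.320. An antisense gene overlaps Adm at 0.784 scaled FPKM, with strandedness not given in the sources used here.

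Egln3 and Ankrd37 are targets that respond to the factors in many cell types, and here each gave intervals on both sides of 0. Egln3 (chromosome 12, 54178981 to 54203860, minus strand), a prolyl hydroxylase that closes a feedback loop on the factors, measured 9.93, 9.73, 9.49 and 7.73 in WT and 7.85, 11.4, 9.91 and 9.37 scaled FPKM in KO. The lowest libraries, WT replicate 4 and KO replicate 1, lay side by side, and KO replicate 2 was highest. Its log2 fold change was 0.05 (SE 0.11, 95% interval -0.20 to 0.31, limma adjusted p = 0.849), which went below 0 when WT replicate 4 (-0.02) or KO replicate 2 (-0.03) was left out. Ankrd37 (chromosome 8, 45996902 to 45999867, minus strand) held only 29 reads in WT (6, 5, 9 and 9) and 35 in KO (7, 2, 15 and 11), or 0.480 ± 0.149 and 0.568 ± 0.351 scaled FPKM. Both extremes were KO libraries, at 0.108 in replicate 2 and 0.932 in replicate 3. The log2 fold change of Ankrd37 was 0.07 (SE 0.25, 95% interval -0.50 to 0.64, limma adjusted p = 0.919), and it was -0.03 with quantile normalization, -0.08 with voom and -0.02 without WT replicate 2. Ankrd37 overlaps Ufsp2, at 20.6 scaled FPKM on the other strand, only at its edge, since Ufsp2 ends at 45996958. It also overlaps Lrp2bp, at 0.0901 scaled FPKM on the other strand. Of its 1539 exon bases in GENCODE vM21, which reach 46005707, 26.4% lie in exons of Ufsp2 or Lrp2bp. The deposited length of Ankrd37 is 927 bases.

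**Figure D2:**
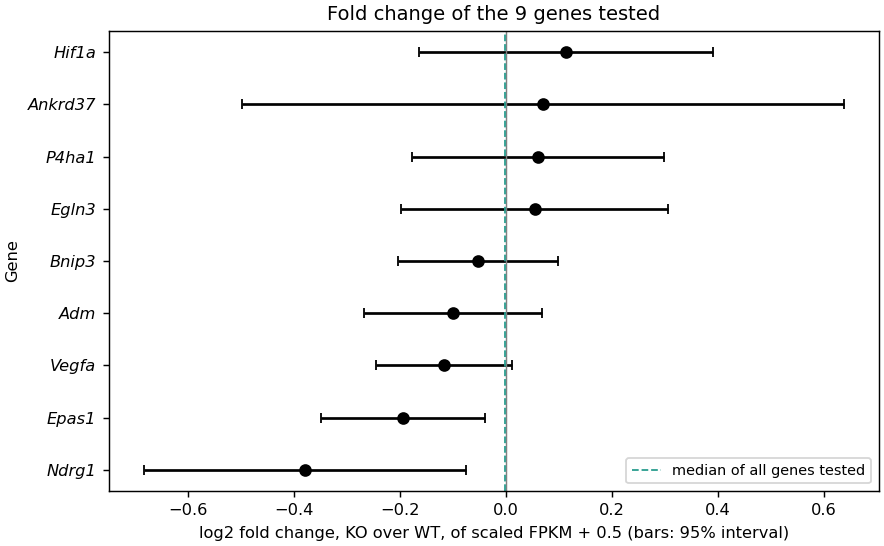
Fold change between the genotypes (horizontal axis, log2 of KO over WT) of the 9 genes tested, with 95% intervals from limma; the dashed line is the median of all genes tested. The intervals of Epas1 (-0.35 to -0.04) and Ndrg1 (-0.68 to -0.07) lie below 0 without passing the adjusted threshold.

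Among the cell response genes, Ndrg1 showed the largest difference of the 9. Ndrg1 (chromosome 15, 66929321 to 66969640, minus strand), a cytoplasmic stress protein that is a classical target of the factors, measured 326, 331, 463 and 279.6 in WT and 279, 288, 235 and 258 scaled FPKM in KO. WT replicates 1, 2 and 3 lay above every KO library, and WT replicate 4 lay between KO replicates 1 and 2. The means were 349.9 ± 78.6 and 265.0 ± 23.5 (SD, n = 4), a ratio of 0.757 for KO over WT. The log2 fold change was -0.38 (SE 0.14, 95% interval -0.68 to -0.07, unadjusted p = 0.0197, limma adjusted p = 0.250), and the exact permutation p was 0.0571. Without KO replicate 3, the lowest library, the log2 fold change was -0.32 (limma unadjusted p = 0.0539). With quantile normalization it was -0.30 (limma unadjusted p = 0.0756). Without WT replicate 3, the library with the highest level, it was -0.24, with a limma adjusted p of 0.163 (0.163 to 0.434 over all alternatives).

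That library is also the one with the highest sum of tubule injury markers, 709 scaled FPKM, as given above. Of the 7 injury genes, 6 were tested, all 6 had a log2 fold change below 0, none was called and none was at 0 in every library, and their part in the Ndrg1 difference was not tested. Havcr1, the injury marker KIM-1, stood at 4.73 in WT replicate 3, with the other 7 libraries between 0.482 and 1.89. Spp1 made 554.6 of the sum in WT replicate 3. Lcn2 of the same list was highest in KO replicate 3 (4.07), with 3.41 in WT replicate 3, and Sox9 was highest in WT replicate 1.

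Bnip3 (chromosome 7, 138890836 to 138909519, minus strand), a mitochondrial protein that marks mitochondria for removal, measured 64.0, 68.3, 74.4 and 67.5 in WT and 68.8, 60.3, 63.7 and 71.6 scaled FPKM in KO. The groups interleaved, with the highest library in WT and the lowest in KO. Its log2 fold change was -0.05 (SE 0.07, 95% interval -0.20 to 0.10, limma adjusted p = 0.733). With GC and length trends removed it was -0.13 (limma unadjusted p = 0.0195, adjusted p = 0.354). The limma adjusted p ran from 0.354 to 0.963 over all alternatives. Of its 2265 exon bases in GENCODE vM21, 22.3% lie in exons of Gm45507. The deposited length of Bnip3 is 1756 bases, and no other gene of the deposited expression table overlaps its span.

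P4ha1 (chromosome 10, 59323296 to 59373304, plus strand) encodes a catalytic subunit of the enzyme that hydroxylates proline in collagen. It measured 13.4, 13.6, 13.6 and 15.2 in WT and 15.8, 12.3, 17.6 and 13.1 scaled FPKM in KO. The KO libraries lay on both sides of the WT range, with an SD of 2.47 against 0.837. The log2 fold change of P4ha1 was 0.06 (SE 0.11, 95% interval -0.18 to 0.30, limma adjusted p = 0.814), and it was -0.03 without KO replicate 3 and 0.0057 with GC and length trends removed.

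**Figure D3:**
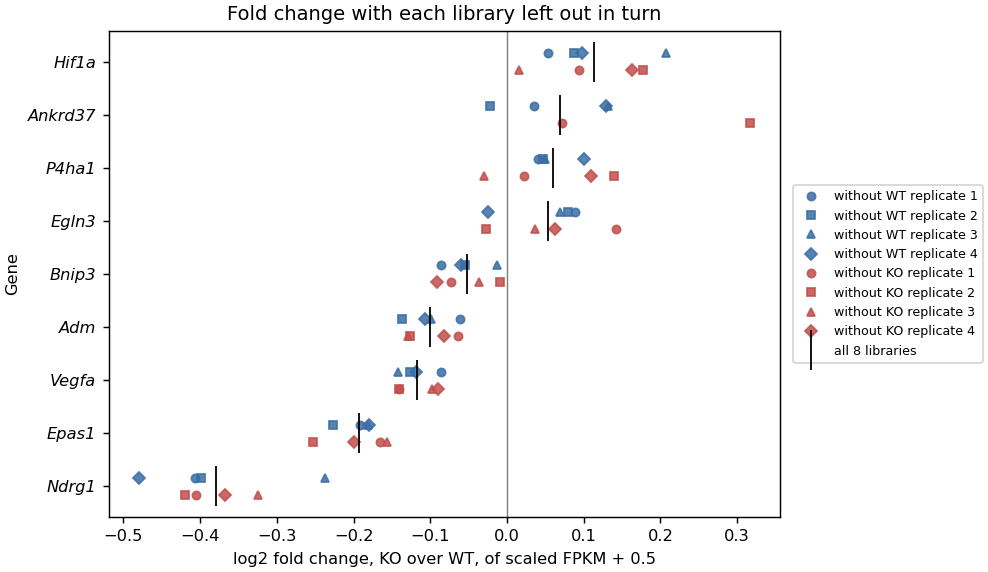
Fold change between the genotypes (horizontal axis, log2 of KO over WT) of the 9 genes with each library left out in turn (symbols) and with all 8 libraries (black bars); Ankrd37 fell under the filter without KO replicate 3 or 4. Ndrg1 went from -0.38 to -0.24 without WT replicate 3, and Ankrd37, Egln3 and P4ha1 crossed 0.

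Levels differed far more between these genes than between the genotypes. FPKM is per length, so levels can be compared between genes, and the order of mean scaled FPKM over the 8 libraries was Ndrg1 (307.5), Vegfa (84.0), Bnip3 (67.3), Epas1 (43.0), P4ha1 (14.3), Hif1a (13.5), Egln3 (9.43), Adm (4.5), Ankrd37 (0.524) and Epo (0.430). The ranges of the first 4 did not overlap with each other. Those of P4ha1 and Hif1a overlapped, with P4ha1 the higher in 7 of the 8 libraries. Those of Ankrd37 and Epo overlapped as well, with Ankrd37 the higher in 4. The order within these pairs was not tested. The ranges of Hif1a and Egln3 met only at 11.3 and 11.4, and Hif1a was the higher in each of the 8 libraries. Ndrg1 ranked above 98.8% of the genes tested and Vegfa above 94.4%. Epas1 ranked above 88.7% of the genes tested, Hif1a above 67.3% and Adm above 38.9%. The spread between libraries of a genotype, as a coefficient of variation, was 5.41% for Vegfa, 7.08% for Epas1, 18.9% for Ndrg1, 51.5% for Ankrd37 and 64.9% for Epo.

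**Figure D4:**
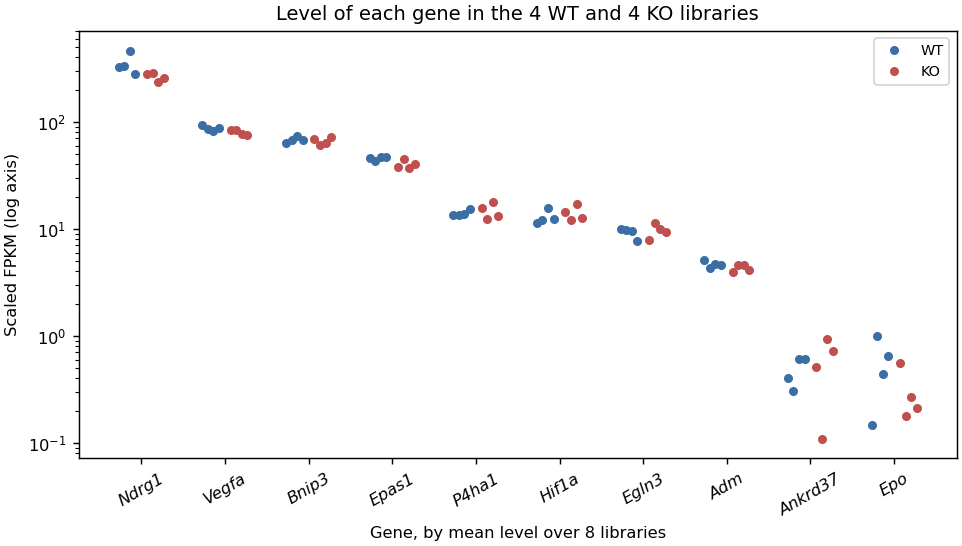
Scaled FPKM (vertical axis, logarithmic) of the 10 genes, ordered by their mean over 8 libraries; points are libraries, WT on the left and KO on the right of each gene. Ndrg1 lies between 235 and 463, and Ankrd37 and Epo lie below 1 in every library.

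No pair of the genes passed a test of varying together across the 8 libraries. Of the 36 pairs of tested genes, 17 had a Pearson r above 0 and 19 below, and 0 passed an exact permutation test adjusted over the pairs by Benjamini-Hochberg (lowest adjusted p = 0.536). At an unadjusted p under 0.05 there were 0 by Pearson's r and 2 by Spearman's rho. Hif1a and Ankrd37 had a rho of 0.81 (exact permutation p = 0.0218, adjusted p = 0.577) and an r of 0.63 (exact permutation p = 0.0946, adjusted p = 0.536), which was 0.30 without the 2 libraries farthest from the median of Hif1a. Hif1a and Vegfa had a rho of -0.76 (exact permutation p = 0.0368, adjusted p = 0.577) and an r of -0.57 (exact permutation p = 0.14, adjusted p = 0.536), which was -0.38 without those 2 libraries. Neither pair passed once adjusted. Hif1a and P4ha1 had an r of 0.70 (exact permutation p = 0.0527, adjusted p = 0.536) and a rho of 0.71 (exact permutation p = 0.0576, adjusted p = 0.577). The r of Hif1a and P4ha1 was 0.69 without the 2 libraries farthest from the median of Hif1a and 0.68 with genotype means removed. Within the genotypes it was -0.04 in WT and 0.98 in KO, so the relation was not seen in both, and 4 libraries each are too few for a test. Ankrd37 and P4ha1 had an r of 0.70 (exact permutation p = 0.0534, adjusted p = 0.536) and a rho of 0.52 (exact permutation p = 0.197, adjusted p = 0.648). Without the 2 libraries farthest from the median of Ankrd37 its r was 0.06, so that relation rested on them. The factor subunits Hif1a and Epas1 had an r of -0.52 (exact permutation p = 0.182, adjusted p = 0.536) and a rho of -0.43 (exact permutation p = 0.299, adjusted p = 0.648), and an r of -0.80 without the 2 libraries farthest from the median of Hif1a. Within the genotypes the r of Hif1a and Epas1 was 0.35 in WT and -0.85 in KO, of opposite sign.

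The rest of the oxygen-sensing machinery gave 0 calls among 15 genes tested by limma and 0 by voom, with 1 at an unadjusted p under 0.05 (6.67% of the 15, where 15.4% of all genes were past it) and a median log2 fold change of -0.06. That gene was Cul2, the scaffold of the VHL ubiquitin ligase, at 8.49 ± 0.759 in WT and 9.61 ± 0.667 scaled FPKM in KO (log2 fold change 0.17, limma adjusted p = 0.318), and its fold change was 0.08 (unadjusted p = 0.312) with GC and length trends removed. Next by p was the prolyl hydroxylase gene Egln2, at 42.1 ± 4.72 and 37.9 ± 1.89 (-0.14, limma adjusted p = 0.411), and its fold change was -0.012 with those trends removed. The third alpha subunit gene, Hif3a, did not pass the filter on low values, at 0.133 to 0.668 scaled FPKM.

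Among 34 other known targets tested, 0 were called by limma and 0 by voom. At an unadjusted p under 0.05 there were 9, 5 higher and 4 lower in KO (26.5% of the 34, where 15.4% of all genes were past it), and the median was 0.03. The 2 of smallest p were Bhlhe40, a transcriptional repressor also tied to the circadian clock, at 49.9 ± 3.99 and 40.8 ± 3.56 scaled FPKM (log2 fold change -0.29, limma adjusted p = 0.17), and Hmox1, the enzyme that breaks down haem, at 17.0 ± 1.14 and 14.1 ± 1.11 (-0.26, limma adjusted p = 0.173). Both were lower in KO with no overlap of the groups, and neither passed. The groups did not overlap in 3 of the 34, where 8.62% of all genes tested had groups that did not overlap. The third was Higd1a, higher in KO.

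Glycolysis enzymes, many of which are targets of HIF1A, gave 0 calls among 12 by limma and 0 by voom, with 6 at an unadjusted p under 0.05, 5 lower and 1 higher, and a median of -0.07. Of all genes tested, 15.4% were past it, 8.26% lower and 7.18% higher. Eno1, the enolase, stood at 484 ± 30.5 in WT and 411 ± 8.87 scaled FPKM in KO (log2 fold change -0.23, limma adjusted p = 0.159), and Gpi1, glucose phosphate isomerase, at 162 ± 8.32 and 139.9 ± 7.55 (-0.21, limma adjusted p = 0.178). With GC and length trends removed the log2 fold change was -0.15 for Eno1 and -0.18 for Gpi1. The groups did not overlap in 4 of the 12, where 8.62% of all genes tested had groups that did not overlap.

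Ligands and receptors of VEGF, adrenomedullin and erythropoietin gave 0 calls among 13 by limma and 0 by voom, 1 at an unadjusted p under 0.05, and a median of -0.01. That gene was Vegfb, a relative of Vegfa, at 49.8 ± 2.96 in WT and 41.7 ± 3.95 scaled FPKM in KO with no overlap (log2 fold change -0.26, limma adjusted p = 0.192), and its fold change was -0.13 with GC and length trends removed. Vegfb was the 1 gene of the 13 whose groups did not overlap, where 8.62% of all genes tested had groups that did not overlap. Epor, the erythropoietin receptor, measured 2.57 ± 1.31 and 4.04 ± 2.65 (0.50, limma adjusted p = 0.546), and its log2 fold change ran from 0.15 to 0.75 when single libraries were left out, the lowest without KO replicate 3.

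Among 9 paralogues and partners of the genes, 0 were called by limma and 0 by voom, with a median of 0.0094. Ndrg4, a relative of Ndrg1, was the 1 gene at an unadjusted p under 0.05, at 1.17 ± 1.15 and 2.87 ± 2.0 scaled FPKM (log2 fold change 1.07, limma adjusted p = 0.293). With single libraries left out its fold change ran from 0.71, without KO replicate 3, to 1.48, without WT replicate 3. Egln2 was again next by p.

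**Figure D5:**
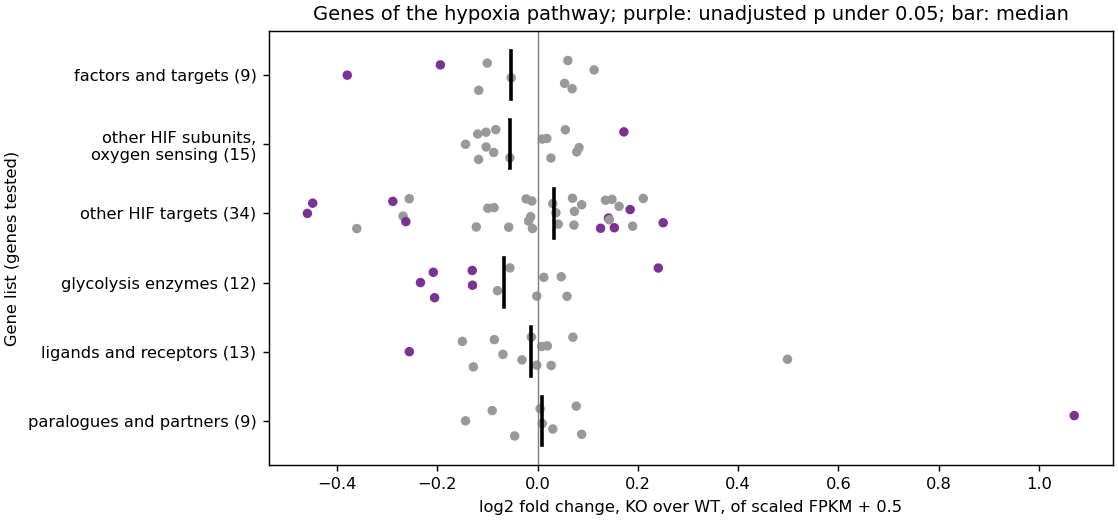
Fold change between the genotypes (horizontal axis, log2 of KO over WT) for the hypoxia genes and 5 related lists, 1 point per tested gene, with the number tested in brackets; purple points have an unadjusted limma p under 0.05 and black bars are medians. The medians lie between -0.07 and 0.03, and no point passed the adjusted threshold.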

How the data were processed

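Poly-A selected RNA of 8 whole left kidneys was sequenced. The authors deposited FPKM per gene with symbol, mm10 position and length, per the file headers. The submitters' processing notes list STAR 2.5, HTSeq 0.6.1, CASAVA and DESeq2 without saying what each did. Annotation release and strandedness: not given in the sources used here. The product of FPKM and gene length gave whole multiples of 1 step per library for 100% of values (tolerance 0.01), so whole reads were recovered for depth and for voom.

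FPKM were divided by 1 median-ratio factor per library (0.978 to 1.03). Genes with a mean of at least 0.5 were kept, and log2(value + 0.5) was the response in limma 3.58.1 under R 4.3.3 (eBayes with trend, genotype as the only term, two-sided), with Benjamini-Hochberg adjustment over all 14022 genes and a threshold of 0.05. Exact two-sided permutation tests used 70 arrangements of the libraries (SciPy 1.17.1). The fit was tested on simulated data. Alternatives were other pseudocounts, filters, scalings and limma settings, voom, removal of GC and length trends (splines of 4 degrees of freedom), and leaving out each library. Correlations with genotype means or GC and length trends removed, or by rank, were added after the data were seen. From each of 5 lists the 2 genes of smallest p and every called gene were named. The genes and lists were chosen with earlier results of these data known.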

Additional observations from a re-analysis of the deposited data

Results flagged for a closer look

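Of 20 groups of 4 libraries (10 genes, 2 genotypes), 1 was flagged for a library far from the others. P4ha1 stood at 15.2 scaled FPKM in WT replicate 4 against 13.4 to 13.6 in the other WT libraries, so that the gap to the nearest was 0.871 of the group's range. That library lay within the KO range of 12.3 to 17.6. Chance flags about 1 in 20 such groups.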

How the results depend on the processing

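Over 20 alternative fits, 0 of the hypoxia genes was called in any, and 171 of 177 fold changes of the 9 tested genes kept their direction. Those of Hif1a, Epas1, Vegfa, Adm, Bnip3 and Ndrg1 kept it throughout. The 6 that reversed were Ankrd37 with quantile normalization (-0.029), with voom (-0.084) and without WT replicate 2 (-0.023), Egln3 without WT replicate 4 (-0.025) or KO replicate 2 (-0.027), and P4ha1 without KO replicate 3 (-0.030). With libraries left out in turn the ranges were -0.02 to 0.32 for Ankrd37, -0.03 to 0.14 for Egln3 and -0.03 to 0.14 for P4ha1. They were 0.02 to 0.21 for Hif1a, -0.25 to -0.16 for Epas1, -0.14 to -0.09 for Vegfa, -0.14 to -0.06 for Adm, -0.09 to -0.0094 for Bnip3, -0.48 to -0.24 for Ndrg1, and 0.394 to 0.736 for the Epo ratio. The count of all genes called ran from 5 to 16, the highest without WT replicate 3, and 5 to 10 under the other settings; the cause was not tested. No paired analysis was possible because the labels give the groups no shared numbers. Depth limits Epo and Ankrd37, at 2 to 15 reads a library.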

Other observations

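The balance of the factor subunits was computed after their values were seen. The ratio of Epas1 to Hif1a in scaled FPKM was 4.08, 3.51, 2.99 and 3.79 in the WT libraries and 2.60, 3.74, 2.16 and 3.25 in the KO libraries. Epas1 was thus the more abundant in all 8 kidneys. The means were 3.59 ± 0.464 and 2.94 ± 0.696 (SD, n = 4), and the exact two-sided permutation p was 0.171.

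Epor and Ndrg4, the genes with the widest spread among the related lists that were named, were both highest in KO replicate 3 (7.94 and 5.87 scaled FPKM) and next highest in WT replicate 3 (4.4 and 2.88). In the other 6 libraries Epor lay between 1.38 and 3.39 and Ndrg4 between 0.460 and 1.93. Hif1a was also highest in these 2 libraries, at 17.1 and 15.8. KO replicate 3 had the highest sum of distal tubule and collecting duct markers, 814 scaled FPKM, of which Aqp2 made 445.7. Aqp3 of that list was also highest there, and Slc12a3, Pvalb and Scnn1g were lowest. WT replicate 3 had the highest sum of tubule injury markers, 709, of which Spp1 made 554.6. Lcn2 of that list was highest in KO replicate 3 (4.07) and next highest in WT replicate 3 (3.41). The part of either set of markers in these levels was not tested.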
